A study of Mus musculus with 117 samples.

Results

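Gastric adenocarcinomas of C57BL/6 mice were compared with normal stomach cells by microarray. The members were chosen by their labels: 11 tumours whose source is gastric adenocarcinoma, 3 samples of Prom1-positive stomach cells and 4 of Prom1-negative stomach cells, or 18 of the 117 samples of the series. Each tumour was a piece of whole tissue frozen when the animal was killed, and nothing was sorted from it. The normal stomachs were broken up into single cells and divided with magnetic beads carrying an antibody to Prom1, a membrane protein (also called CD133) that marks stem and progenitor cells in several adult organs. RNA of all 18 samples was extracted with the same PicoPure kit and measured on Affymetrix arrays of 1 colour. The series describes conditional Prom1 mutants that formed tumours, but no label gives the genotype, the allele, the Cre driver, the age or the sex of the animal behind a sample, and none says whether samples shared an animal. Replicates are therefore separate samples, and p-values measure only the spread between them. Tumour state, freezing of whole tissue and sorting changed together between the groups and cannot be told apart.

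The gastric gland is a tube of a few specialised cell types. Parietal cells pump acid, chief cells store digestive proenzymes, endocrine cells release gastrin, somatostatin and ghrelin, and mucous cells of the surface and the neck coat the lining with mucins and trefoil factors. In mice the glandular stomach adjoins a forestomach lined by a squamous epithelium with its own keratins, and carcinomas of the stomach in general can lose gland products, gain intestinal ones and are rich in matrix, vessels and immune cells.

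Values are log2 probe set signals, on which a step of 1 is a doubling of the signal. Tumour values are given as the lowest, the median and the highest of the 11 samples, positive cells as samples 1 to 3, and negative cells in the order sample 1, the 2 samples that both carry the number 2, called 2a and 2b here, and sample 3. A change is the mean of the tumours minus the mean of the positive and negative group means, from a limma fit over all 117 samples, and a gene is called when its adjusted p is under 0.05. Of 14663 genes tested, 8514 (58.1%) were called, 5135 (35.0%) higher and 3379 (23%) lower in tumours, and the median change of all genes was 0.11. Counts for a gene list are to be read beside these shares, unless another share is given. The values of all 11 tumours lay above those of all 7 sorted samples for 1364 genes (9.30%) and below them for 433 (2.95%). In whole tissue, fewer cells of a type and less RNA per cell cannot be told apart.

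The arrays of the groups differed in their signal range. The upper quartile of the array was 6.48 ± 0.0234 in tumours (SD, n = 11) and 5.91 ± 0.443 in sorted cells (SD, n = 7), a difference with p = 3.14e-05 in a two-sided exact permutation test, the smallest value that the 31824 relabellings allow. It was under 6 in positive samples 2 and 3 and in negative sample 2a. The 3′ minus 5′ signal of the Gapdh control was 0.384 ± 0.125 in tumours and 0.975 ± 0.576 in sorted cells (SD, exact permutation p = 9.43e-05). Array medians did not pass the same test (3.77 ± 0.0327 in tumours and 3.76 ± 0.125 in sorted cells, exact permutation p = 0.853). Their part in the results is shown only as far as counts without these 3 arrays, or with the upper quartile as a covariate, differ. Correlations between samples were 0.891 to 0.977 among tumours, 0.671 to 0.968 among sorted samples and 0.55 to 0.869 between them.

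Parietal cell genes were lower in tumours. Of 17 parietal genes tested, 15 were lower in tumours, where 23% of all genes were, and 1 was higher, with a median change of -2.21. The tumours lay below all sorted samples for 8 of them, against 2.95% of all genes. Without the arrays of low upper quartile, and also after the upper quartile entered the fit as a covariate, 15 were lower and 1 higher. Of all genes, 20.9% and 26.2% were lower in these settings. Atp4a, the catalytic subunit of the proton pump that acidifies the stomach, spanned 2.81 to 3.98 (median 3.32) in tumours, against 6.75, 9.0 and 11.09 in positive and 13.53, 11.54, 11.75 and 12.23 in negative cells. Its change was -7.30 (SE 0.44, adjusted p = 6.55e-28), with 10 of the 11 tumours below the median of their array, near the low end of the scale, which limits the size of the fall. Atp4b, the other subunit of the pump, spanned 3.77 to 4.86 (median 4.20) in tumours, 8.20, 10.62 and 12.75 in positive and 13.94, 13.08, 12.89 and 12.98 in negative cells, and fell by 7.67 (SE 0.29, adjusted p = 2.25e-43). The pump was low in each of the 11 tumours, and each positive sample held less of both subunits than each negative sample. Kcne2 and Kcnj16, potassium channel subunits of the secreting cell, fell by 5.57 and 3.75, the nuclear receptor Esrrg by 5.0, and the histamine receptor Hrh2 by 1.91, each with tumours below every sorted sample. Car2, a carbonic anhydrase that other stomach cells also make, fell by 3.59 and ranged widely among tumours, at 5.67 to 11.36 (median 8.65), against 11.64 to 12.52 in sorted cells. The exception was Tcirg1, a subunit of the vacuolar proton pump that is also abundant in osteoclasts and macrophages. It spanned 7.14 to 8.28 (median 7.82) in tumours and 5.09 to 6.97 in sorted cells, a rise of 1.72 (adjusted p = 1.24e-11).

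Intrinsic factor and chief cell products were low in tumours too. Cblif, which encodes this vitamin B12 carrier and is counted in the parietal list although chief cells make it in mice, spanned 2.75 to 4.70 (median 3.0) in tumours, against 13.18, 13.17 and 12.83 in positive and 12.12, 10.38, 9.37 and 11.16 in negative cells. Its change of -8.69 (SE 0.33, adjusted p = 2.25e-43) was also limited by the low end of the scale, with 10 tumours below the median of their array, as they were for Pgc. Pgc, the proenzyme progastricsin, spanned 2.46 to 6.43 (median 2.74) in tumours, 12.61, 12.37 and 12.69 in positive and 11.85, 11.41, 10.61 and 11.13 in negative cells, and fell by 8.79 (SE 0.30, adjusted p = 2.19e-47). Tumour 10 held the highest Pgc of the tumours at 6.43, and the median tumour lay near the low end of the scale. Pga5, another pepsinogen, fell by 6.02 and Chia1, the acidic chitinase that digests chitin in the mouse stomach, by 7.76. Of the 7 chief cell genes tested, 6 were lower and none was higher. Among the 6 was Clps (colipase), which is also a pancreatic product. Dmbt1, a mucosal scavenger protein on the same list, was not called (2.62 to 12.63, median 10.26, in tumours, 10.06 to 11.69 in sorted cells, adjusted p = 0.101), and 4 tumours lay below and 5 above the range of the sorted cells.

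**Figure D1:**
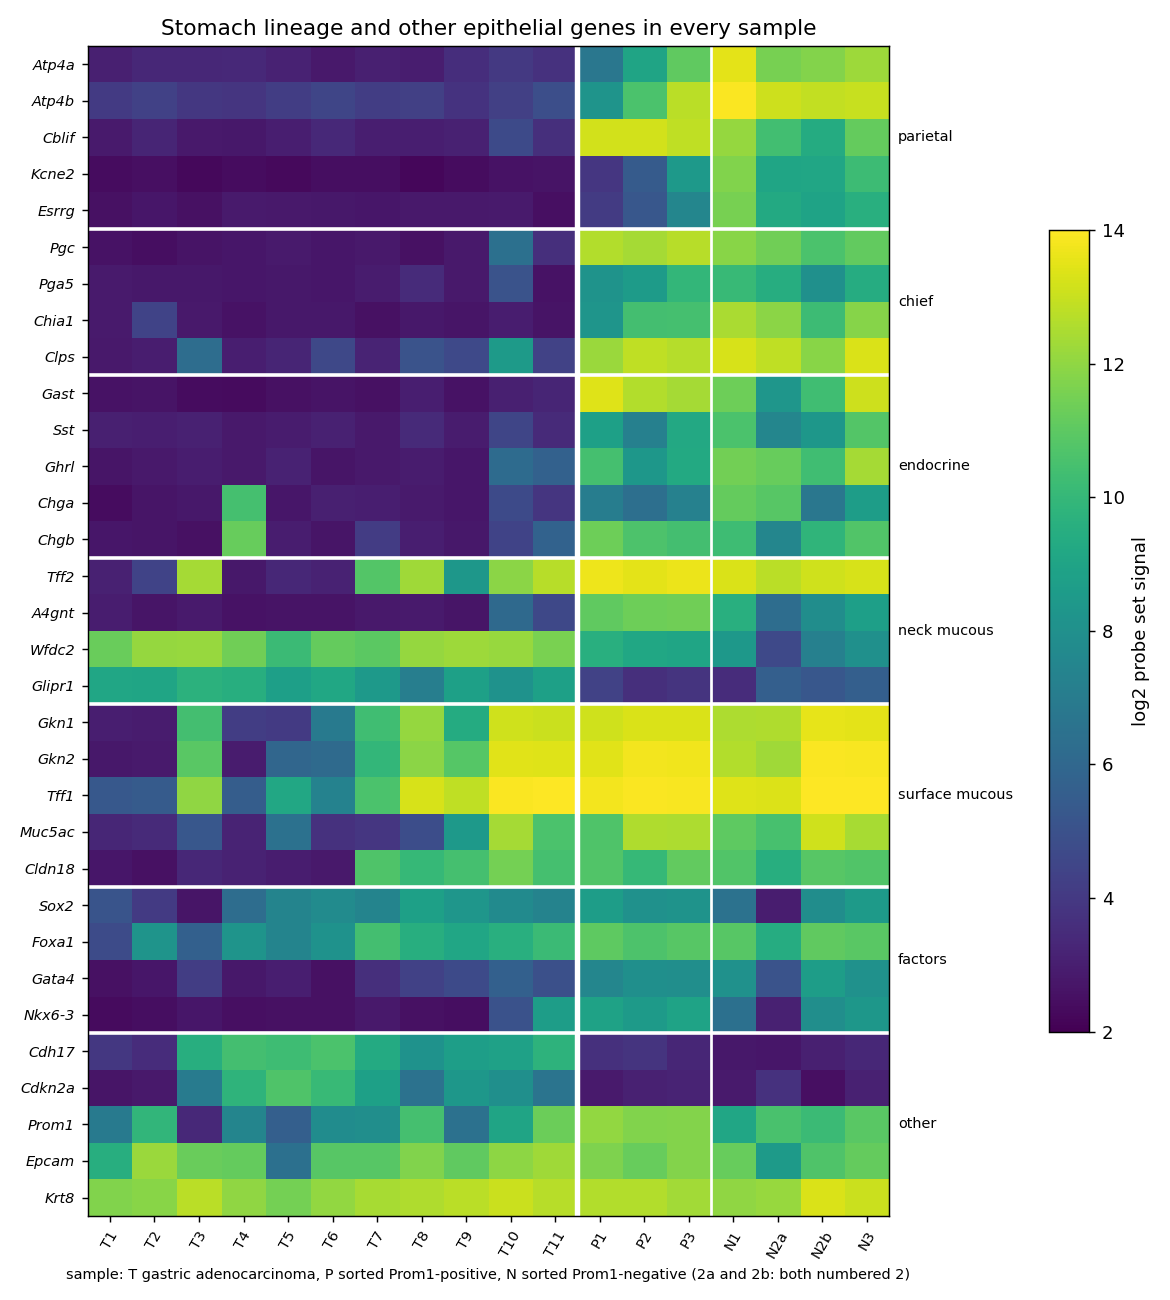
Log2 signal of 32 stomach lineage genes (down the side, grouped by cell type) in 11 tumours, 3 Prom1-positive and 4 Prom1-negative samples (across), coloured from low to high. Parietal, chief and endocrine genes were low in nearly every tumour, while Cldn18 was high in tumours 7 to 11 only, and Gkn1, Gkn2, Muc5ac and Cldn18 were low in tumours 1 and 2.

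The hormones of the gastric endocrine cells were lower in tumours too. Gast, the hormone gastrin, showed the largest fall of the genes whose groups did not overlap. It spanned 2.34 to 3.26 (median 2.6) in tumours, against 13.42, 12.64 and 12.39 in positive and 11.37, 8.29, 10.31 and 13.08 in negative cells, a change of -9.10 (SE 0.33, adjusted p = 7.38e-45). All 11 tumours were below the median of their array, near the low end of the scale, which limits the size of the fall. Somatostatin (Sst) spanned 2.80 to 4.49 (median 3.06) in tumours and 7.23 to 10.81 in sorted cells, and ghrelin (Ghrl) 2.69 to 6.21 (median 2.85) in tumours and 8.34 to 12.37 in sorted cells, falls of 5.69 and 6.95. Neurod1 and Pax6, transcription factors of endocrine cells, fell by 2.25 and 1.08, the second with no call with the upper quartile in the fit (change -0.26, adjusted p = 0.203). Tumour 4 stood apart in the granule proteins: Chga was 10.47 and Chgb 11.20 there, against medians of 2.88 and 2.96 over the 11 tumours. Gast and Ghrl were 2.34 and 2.84 in the same tumour. Of 12 endocrine genes tested 10 were lower and 1 was higher. The higher one was Cpe, a carboxypeptidase that trims prohormones and that many secretory cells make. Cpe rose by 2.68 (adjusted p = 2.78e-05) and was not called without the arrays of low upper quartile (change 1.53, adjusted p = 0.0888).

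Surface mucous genes divided the tumours. Of 11 genes tested 9 were lower and none was higher, with a median change of -4.12, yet for none of them were all 11 tumours below the sorted samples. Gastrokine 1 (Gkn1), which the surface cells secrete, measured 2.99, 2.91, 10.40, 4.20, 4.05, 6.93, 10.32, 12.08, 9.39, 13.14 and 13.02 in tumours 1 to 11, against 13.13, 13.31 and 13.34 in positive and 12.50, 12.59, 13.57 and 13.49 in negative cells. Tumours 10 and 11 lay inside the range of the sorted cells, and tumours 1 and 2 were near the low end of the scale. Cldn18, the tight junction protein of gastric epithelium, measured 2.72, 2.53, 3.33, 3.17, 2.94, 2.82, 10.71, 10.04, 10.46, 11.48 and 10.48 in the 11 tumours, against 10.74, 10.04 and 11.10 in positive and 10.72, 9.54, 10.89 and 10.74 in negative cells, so that tumours 7 to 11 lay inside or above the range of the sorted cells and tumours 1 to 6 far below it. The mucin Muc5ac fell by 5.89 (SE 0.73, adjusted p = 2.62e-11), Gkn2 by 5.15 and trefoil factor 1 (Tff1) by 3.84, and each spanned most of the scale in tumours (3.21 to 12.38, median 4.84, for Muc5ac, 2.77 to 13.44, median 9.93, for Gkn2 and 5.29 to 13.97, median 10.58, for Tff1). The 10 genes with the largest SD over the tumours were Tff2, Gkn2, Gkn3, Cldn18, Gkn1, Dmbt1, Xist, Anxa10, Agr2 and Tff1, most of them products of mucous cells. Muc1, a membrane mucin of many epithelia, was not called (change -0.57, adjusted p = 0.436).

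The 6 neck mucous genes tested went both ways, with 3 lower and 3 higher. Tff2, the trefoil factor of neck cells, measured 3.08, 4.42, 12.39, 2.76, 3.32, 3.17, 10.81, 12.28, 8.36, 11.90 and 12.73 in tumours 1 to 11, against 13.68, 13.52 and 13.67 in positive and 13.34, 12.74, 13.14 and 13.29 in negative cells, with tumour 11 only just below the lowest sorted sample (change -5.63, adjusted p = 3.19e-08). A4gnt, which makes the sugar cap of gland mucin, spanned 2.57 to 6.11 (median 2.84) in tumours and 11.08, 11.34 and 11.40 in positive and 9.58, 6.27, 7.86 and 8.76 in negative cells, a fall of 6.47 (adjusted p = 3.38e-37). Aqp5, a water channel of pyloric gland base cells, fell by 1.64 and was not called without the arrays of low upper quartile (adjusted p = 0.063). The 3 that rose were Cd44, a hyaluronan receptor, by 2.15, Wfdc2, a protease inhibitor, by 3.40, and Glipr1 by 4.32. These 3 are also made by cells other than neck cells.

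Gastric transcription factors were lower more often than not, with 8 of 11 lower and 1 higher. Gata4 fell by 3.92 (2.53 to 5.69, median 3.62, in tumours, 7.51, 7.96 and 7.95 in positive and 8.06, 5.06, 8.70 and 8.09 in negative cells, adjusted p = 6.51e-23) and Nkx6-3, a factor of the pyloric glands, by 4.31. Foxa1 and Spdef fell by 2.42 and 3.07. Sox2, which marks foregut epithelium, was not called (2.69 to 8.82, median 7.43, in tumours, 2.94 to 8.66 in sorted cells, change -0.75, adjusted p = 0.302) except as lower with the upper quartile in the fit (-2.29, adjusted p = 0.0123), nor was Foxa2 (change -0.71, adjusted p = 0.0728), which was called lower without tumour 3, tumour 5 or negative sample 2a (lowest adjusted p of the 3 = 0.0289) and with quantile normalization repeated (adjusted p = 0.00809). Runx3 rose by 1.18, and by 0.16 with no call when all its probe sets were averaged.

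Among 25 intestinal genes 10 were lower and 4 were higher. Cdh17, the liver-intestine cadherin, rose most. It was 3.94 and 3.54 in tumours 1 and 2, had a median of 9.34 over the 11 and reached 10.62, against 3.66, 3.81 and 3.27 in positive and 2.79, 2.74, 3.07 and 3.32 in negative cells (change 5.19, SE 0.68, adjusted p = 1.64e-10). Cldn3 and Cldn7, claudins of the intestine and other epithelia, rose by 3.07 and 2.08. Cldn7 was not called without the arrays of low upper quartile (adjusted p = 0.0886). The regulators of intestinal identity were not higher: Cdx1 spanned 2.28 to 2.70 (median 2.44) in tumours and 2.52 to 3.10 in sorted cells (adjusted p = 0.15), while Cdx2 spanned 3.01 to 3.69 (median 3.29) in tumours and 3.33 to 5.01 in sorted cells, a fall of 0.57 (adjusted p = 0.026) that was lost without positive sample 1 or negative sample 2a (adjusted p = 0.0983 and 0.154) and with the upper quartile in the fit (change 0.22, adjusted p = 0.558). Tumour 11 was the highest tumour for 3 intestinal transcripts, at 11.90 for Clca1, 11.51 for Tff3 and 10.79 for Alpi, against tumour medians of 2.90, 3.62 and 2.71. Sorted stomach cells held them too: Clca1 was 7.81, 9.57 and 10.67 in positive and 2.86, 5.15, 10.31 and 9.66 in negative cells, and Alpi was 3.49 to 7.67 and Tff3 4.73 to 6.93 in the 7 samples. Clca1 fell by 3.95 and Alpi by 2.01, while Tff3 was not called (change -1.19, adjusted p = 0.155) but was called lower without tumour 11 (-1.89, adjusted p = 0.00984) or with quantile normalization repeated (-1.71, adjusted p = 0.0384).

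Squamous forestomach genes fell in 14 of 23 cases and rose in 2. Krt5, the keratin of the basal layer, spanned 3.40 to 4.07 (median 3.67) in tumours, against 5.19, 6.51 and 7.82 in positive and 4.08, 4.89, 6.01 and 8.48 in negative cells, and fell by 2.49 (adjusted p = 8.8e-07). The sorted samples differed among themselves: Krt6b was no more than 2.64 in tumours, against 3.24, 7.95 and 9.38 in positive and 2.57, 2.30, 4.89 and 9.45 in negative cells. The 2 that rose were Sprr1a, by 2.94, and Ivl (involucrin), by 4.18 (2.97 to 10.78, median 7.69, in tumours and 2.58 to 3.56 in sorted cells), both precursors of the cornified envelope. How much forestomach each sorted sample held was not recorded, and its part in the glandular results was not tested.

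General epithelial genes were called in both directions, and several widely used markers were not called. Epcam spanned 6.45 to 12.30 (median 11.16) in tumours, against 11.68, 11.23 and 11.78 in positive and 11.19, 8.56, 10.69 and 11.15 in negative cells, and was not called (change -0.12, 95% interval -1.08 to 0.83, adjusted p = 0.838). Below 9 were only tumour 5, at 6.45, and negative sample 2a. Krt8, the keratin of simple epithelium, was 11.49 to 13.03 (median 12.45) in tumours and 12.03 to 13.33 in sorted cells (change -0.27, 95% interval -1.16 to 0.62, adjusted p = 0.625). Cdh1 (E-cadherin) was not called either (change -0.55, adjusted p = 0.373). Of 19 glandular epithelium genes, 8 were lower and 5 higher. Grhl2, a regulator of epithelial junctions, fell by 2.37 with all tumours below all sorted samples (4.27 to 8.0, median 6.47, in tumours, 8.48 to 9.0 in sorted cells), and the proteases St14 and Prss8 fell by 2.27 and 2.84. Krt7, Cldn4 and Tjp1 rose by 2.52, 3.17 and 1.43, of which Tjp1 was not called with the upper quartile in the fit (change 0.062, adjusted p = 0.91). Krt20 rose by 1.79 with adjusted p between 0.0525 and 0.114 when tumour 10, positive sample 1, positive sample 3, negative sample 1 or negative sample 2a was left out, and 0.281 with the upper quartile in the fit. Lcn2, a siderophore-binding protein of inflamed epithelium and neutrophils, rose by 5.64 (6.68 to 12.85, median 8.72, in tumours, 3.01, 3.31 and 3.26 in positive and 2.97, 5.47, 2.98 and 3.09 in negative cells).

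Prom1 itself was lower in tumours than in either sorted fraction and ranged widely among them. It measured 6.90, 9.88, 3.39, 7.47, 5.63, 7.83, 7.91, 10.46, 6.48, 9.03 and 11.29 in tumours 1 to 11, against 12.06, 11.72 and 11.78 in positive and 9.12, 10.57, 10.20 and 10.93 in negative cells. The change was -3.19 (SE 0.81, adjusted p = 0.000478), and tumours 2, 8 and 11 lay inside the range of the sorted cells. The negative cells thus also held Prom1 transcript. Every positive sample lay above every negative sample, but the difference between positive and negative cells, 1.65, was not called (adjusted p = 0.532). That p rests on a spread shared by all 19 groups, these widely ranging tumours included, so it does not show that the fractions held equal Prom1. Against positive cells the tumours were lower by 4.01 (adjusted p = 0.00151) and against negative cells by 2.36 (adjusted p = 0.0345).

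Other stem and progenitor genes differed by the cells they were set against. Lgr5, the receptor that marks gland base stem cells, spanned 3.54 to 6.37 (median 4.60) in tumours, 9.02, 9.14 and 9.28 in positive and 6.90, 3.76, 4.46 and 6.51 in negative cells. It was lower in tumours than in positive cells by 4.29 (adjusted p = 5.32e-07), and the difference from negative cells was -0.55 (adjusted p = 0.496). Ascl2, a Wnt-driven stem cell factor, was lower than in positive cells by 3.81 (adjusted p = 8.3e-15), with a difference of -0.68 from negative cells (adjusted p = 0.0799). Cd44 was higher than in negative cells by 3.94 (adjusted p = 5.56e-13), with a difference of 0.36 from positive cells (adjusted p = 0.584). Of 19 stem and progenitor genes, 9 were lower and 3 higher against positive cells, where 19.6% of all genes were lower and 25.5% higher, and 3 were lower and 3 higher against negative cells, where 18.1% and 35.0% were. In the fit, positive minus negative cells was itself called for Lgr5 at 3.74 (adjusted p = 0.00222), Ascl2 at 3.13 (adjusted p = 2.9e-07) and Cd44 at 3.59 (adjusted p = 5.04e-06). Against the mean of both fractions Mex3a and Runx1 rose by 2.72 and 1.99, with every tumour above every sorted sample, and Aldh1a1 fell by 2.74, with every tumour below.

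The lists with the highest median changes were those of the extracellular matrix. Fn1 (fibronectin) spanned 11.43 to 12.94 (median 12.25) in tumours, against 5.48, 6.79 and 5.90 in positive and 3.88, 4.01, 7.01 and 5.14 in negative cells, a change of 6.71 (SE 0.35, adjusted p = 4.54e-33) or 104.3-fold. All 16 matricellular genes tested were higher, 12 of them with every tumour above every sorted sample, and their median change was 5.21. The mean level of the list was 8.108 to 9.635 in tumours, 4.383 to 5.004 in positive and 3.931 to 4.64 in negative cells. Tnc (tenascin C), Sparc, Postn (periostin) and Bgn (biglycan), glycoproteins and proteoglycans of remodelled stroma, rose by 6.29, 6.15, 5.98 and 5.92. Of 19 collagens 15 were higher and none lower, with a median of 4.22. Col5a2, a fibrillar collagen, spanned 9.58 to 10.95 (median 10.45) in tumours and 2.81 to 3.77 in sorted cells (change 7.21, adjusted p = 5.48e-27), and Col3a1 11.33 to 12.82 (median 12.50) in tumours and 4.94 to 9.62 in sorted cells (change 5.61). Col1a1 rose by 4.87, while Col1a2 was not called (change 0.58, adjusted p = 0.117). It was called without negative sample 2a (change 0.78, adjusted p = 0.0387), with arrays weighted by their quality (0.83, adjusted p = 0.0372) and with quantile normalization repeated (0.71, adjusted p = 0.0464).

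Proteases that cut matrix and the urokinase system were also higher. Of 19 genes 17 were higher and none lower, with a median of 3.25. Plat, tissue plasminogen activator, spanned 8.74 to 11.39 (median 10.36) in tumours, against 3.97, 3.20 and 3.64 in positive and 3.26, 2.88, 2.95 and 3.84 in negative cells (change 6.85, adjusted p = 1.72e-23). The gelatinase Mmp2 rose by 5.30, the membrane protease Mmp14 by 4.01, the urokinase receptor Plaur by 4.02 and the inhibitor Timp1 by 5.31. Urokinase itself, Plau, rose by 2.02 and ranged from 3.69 to 8.62 among tumours.

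Mesenchymal genes were higher in 11 of 14 cases and lower in none, with a median of 3.62. Vim (vimentin), the intermediate filament of mesenchymal and blood cells, spanned 10.90 to 13.23 (median 12.87) in tumours, against 6.59, 4.40 and 6.01 in positive and 3.60, 7.36, 6.72 and 6.47 in negative cells (change 6.62, SE 0.40, adjusted p = 3.21e-28). Among transition factors, Zeb1, Zeb2 and Twist1 rose by 3.70, 3.54 and 3.45, Snai2 by 1.23 (adjusted p = 0.0838 with the upper quartile in the fit), and Snai1 was not called (change -0.30, adjusted p = 0.103), though it was called lower when 1 of 4 samples was left out (by up to 0.48), with arrays weighted by their quality and with the upper quartile in the fit (adjusted p = 0.0233 and 0.0258). The cadherins Cdh2 and Cdh11 rose by 4.69 and 4.95. Of 17 fibroblast genes 12 were higher and none lower (median 2.18), among them Lum (lumican) by 4.55, Dcn (decorin) by 4.14 and Thy1 by 3.69. The mean level of the fibroblast list was 6.118 to 7.287 in tumours, 3.978 to 4.342 in positive and 3.348 to 4.643 in negative cells. Dcn, a defining fibroblast marker, was 9.20 to 11.62 (median 10.71) in tumours, against 3.92, 6.77 and 6.30 in positive and 4.13, 9.15, 8.12 and 7.42 in negative cells. It was near the array median in positive sample 1 and negative sample 1 and higher in the other 5 sorted samples. These data do not show which cells of a tumour held the mesenchymal transcripts, and how far the amount of stroma moved them was not tested.

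Endothelial genes were also higher. Of 16 tested 10 were higher and none lower (median 1.19), with Vwf, Cdh5 and Flt1 rising by 2.85, 2.40 and 2.73. Pecam1 was 4.42 to 6.31 (median 5.34) in tumours and 3.02 to 4.83 in sorted cells, a rise of 1.36 (adjusted p = 0.00604) that was not called with the upper quartile in the fit (adjusted p = 0.14) or against positive cells alone (adjusted p = 0.119). Smooth muscle genes were higher in 5 of 10 cases, and differed between tumours. Myh11, smooth muscle myosin, was 10.21 in tumour 11 and 8.52 in tumour 7 but had a median of 3.14 over the 11, against 2.08, 3.01 and 3.14 in positive and 2.22, 3.21, 2.36 and 2.89 in negative cells. Its change of 1.61 (adjusted p = 0.0435) lost its call without tumour 7 (1.19, adjusted p = 0.134), tumour 11 (1.02, adjusted p = 0.177) or any 1 sorted sample but negative samples 2a and 3. Acta2, actin of smooth muscle and activated fibroblasts, was higher in every tumour (8.88 to 12.55, median 9.84, in tumours, 4.15 to 6.28 in sorted cells, change 4.62).

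**Figure D2:**
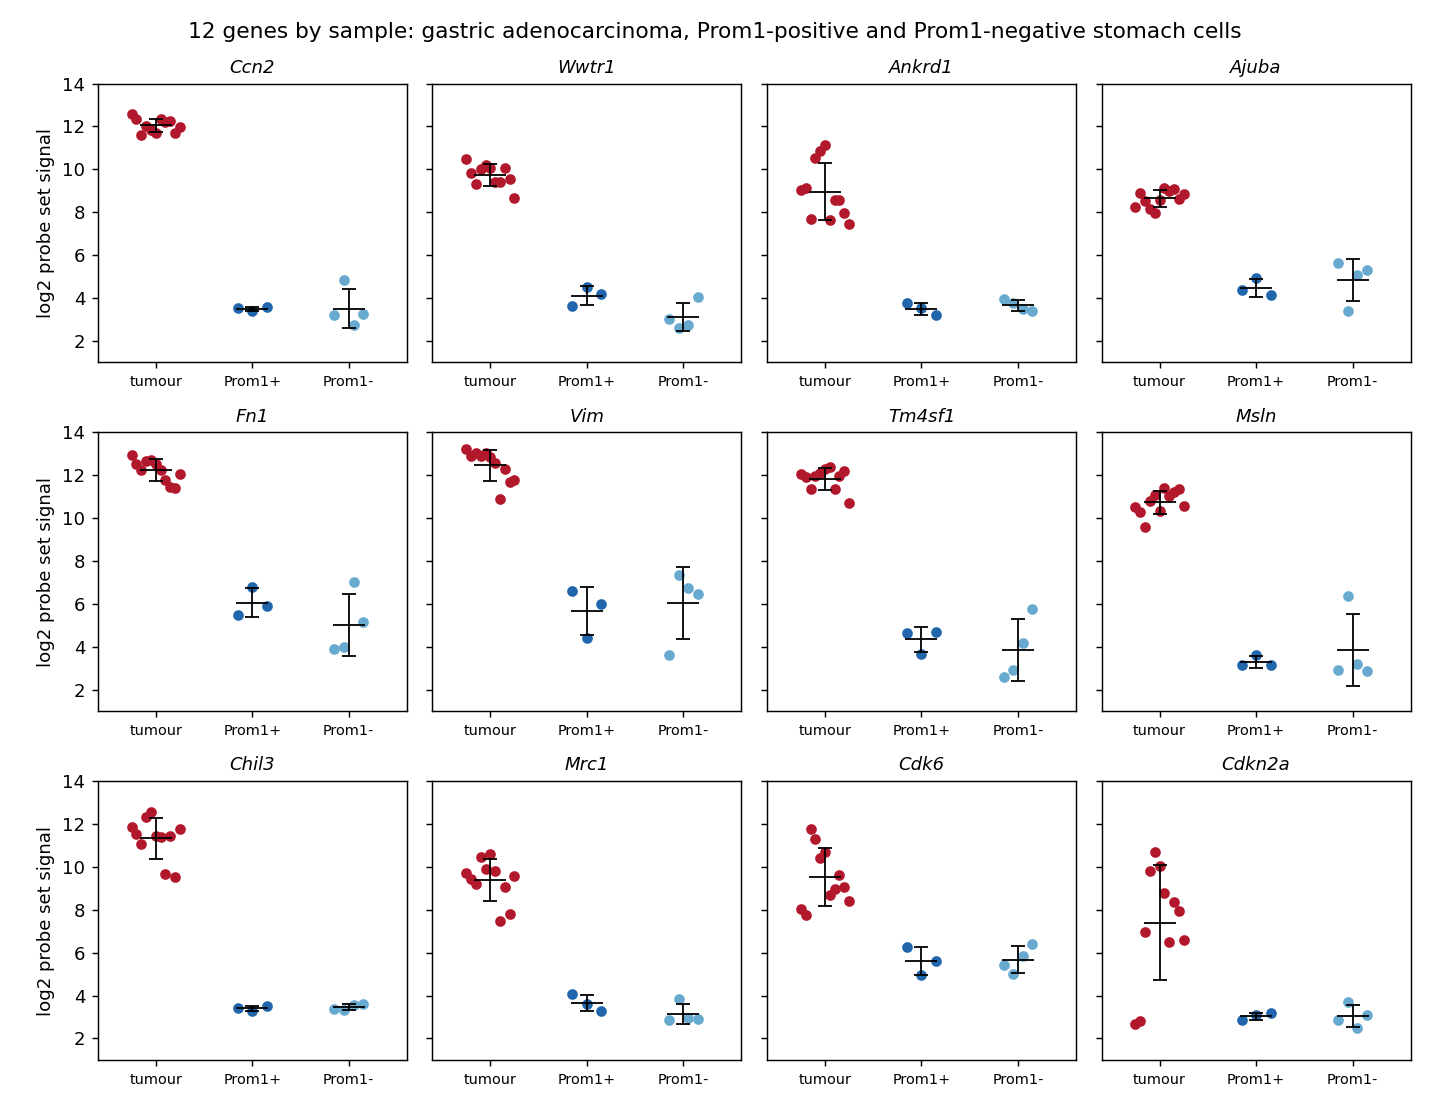
Log2 signal of 12 genes in 11 tumours, 3 Prom1-positive and 4 Prom1-negative samples, with 1 point a sample and bars at the mean ± SD of each group. The tumours lie above all sorted samples in every panel except Cdkn2a, where tumours 1 and 2 sit at the level of the sorted cells.

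Targets and partners of YAP, the effector of the Hippo pathway, were higher in most cases. When Hippo kinases are off, YAP and its relative TAZ (gene Wwtr1) enter the nucleus and act through TEAD factors on genes such as Ccn2, Ccn1 and Ankrd1. Of 12 genes tested 9 were higher and none lower, with a median of 1.89, and 7 had every tumour above every sorted sample, against 9.30% of all genes. With the upper quartile as a covariate 8 were higher and 1 lower, where 16.5% and 26.2% of all genes were. The promoters of 3 called targets are shown because the list was chosen for a transcription factor whose site can be looked up in them. They are from RefSeq (mouse, GRCm38.p6), 250 bases before to 50 after the gene's start, written 5′ to 3′ on the gene's strand, with matches to the TEAD core GGAATG, or its reverse complement CATTCC, in capitals.
Ankrd1: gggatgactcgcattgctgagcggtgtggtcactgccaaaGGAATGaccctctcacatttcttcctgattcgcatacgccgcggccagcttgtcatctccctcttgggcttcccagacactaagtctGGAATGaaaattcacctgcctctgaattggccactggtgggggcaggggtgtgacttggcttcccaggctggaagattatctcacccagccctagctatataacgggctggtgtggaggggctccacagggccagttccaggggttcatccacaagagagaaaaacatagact
Ajuba: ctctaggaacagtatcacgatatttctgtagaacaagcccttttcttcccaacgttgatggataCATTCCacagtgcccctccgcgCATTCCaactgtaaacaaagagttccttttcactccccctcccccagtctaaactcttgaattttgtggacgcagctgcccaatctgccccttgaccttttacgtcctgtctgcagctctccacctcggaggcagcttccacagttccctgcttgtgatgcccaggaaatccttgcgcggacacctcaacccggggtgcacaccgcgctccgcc
Ccn1: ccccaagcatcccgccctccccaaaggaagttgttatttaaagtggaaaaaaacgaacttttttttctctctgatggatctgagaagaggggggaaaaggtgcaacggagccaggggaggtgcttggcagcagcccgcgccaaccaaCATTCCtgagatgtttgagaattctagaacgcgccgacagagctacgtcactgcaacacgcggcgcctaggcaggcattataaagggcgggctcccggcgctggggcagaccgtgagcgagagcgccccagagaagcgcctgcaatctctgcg
The Ankrd1 window is chr19:36119795-36120094 and holds the core at -210 and -123, counted from the gene's start. The Ajuba window is chr14:54577612-54577911, with matches at -186 and -164, and the Ccn1 window is chr3:145649936-145650235, with a match at -103. All 3 genes lie on the minus strand. On either strand, the core occurred in 8 of 10 promoters of the list that had an entry (80.0%) and in 4817 of 32851 promoters of all genes (14.7%). The 3 shown were among those with a match, and Ccn2, Tead1, Tead4 and Ccn3 had no entry. These shares count promoters, and a gene can have more than 1, so they are not shares of separate genes. The list was made of known targets and partners of YAP, so this share does not test TEAD activity in the tumours. Cores of the Esrrg and Gata4 factor families were also searched, in 22 promoters of the parietal list. They occurred in 4.5% and 9.1% of these, against 4.7% and 11.2% of all promoters. A match is a run of letters and does not show that a factor binds there.

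Ccn2, a secreted matrix-associated protein, had the largest rise of the genes whose groups did not overlap. It spanned 11.61 to 12.56 (median 12.02) in tumours, against 3.52, 3.39 and 3.58 in positive and 3.20, 4.82, 2.74 and 3.25 in negative cells, a change of 8.55 (SE 0.48, adjusted p = 2.26e-30). In 6 of the 7 sorted samples it was below the median of the array, which limits the size of the rise. Wwtr1, which encodes TAZ, spanned 8.65 to 10.50 (median 9.85) in tumours, 3.64, 4.53 and 4.16 in positive and 3.0, 2.6, 2.74 and 4.06 in negative cells (change 6.13, SE 0.27, adjusted p = 2.74e-38). It was low in all 7 sorted samples and high in all 11 tumours. Ankrd1, a nuclear ankyrin repeat protein, spanned 7.47 to 11.15 (median 8.56) in tumours, 3.76, 3.52 and 3.19 in positive and 3.95, 3.78, 3.48 and 3.40 in negative cells (change 5.39, adjusted p = 1.27e-15). Ajuba, a LIM protein that restrains the Hippo kinases, rose by 3.98. Lats2, one of those kinases, rose by 2.6, or by 0.718 with its 5 probe sets averaged. Yap1 and Tead1 rose by 1.24 and 1.79, and neither was called with the upper quartile as a covariate (changes 0.15 and 1.03, adjusted p = 0.738 and 0.0626). Ccn1 overlapped the sorted cells (7.83 to 9.81, median 9.12, in tumours, 8.19, 6.6 and 8.09 in positive and 6.65, 5.76, 6.09 and 6.50 in negative cells) and rose by 2.0 (adjusted p = 6.04e-06). The 3 not called were Birc5 (change -0.79, adjusted p = 0.174, and -1.30 with adjusted p = 0.0215 without negative sample 2a), Tead4 (change 0.09, adjusted p = 0.725) and Ccn3 (adjusted p = 0.825). With the upper quartile in the fit Birc5 was called lower (change -2.22, adjusted p = 0.00229) and Tead4 higher (0.96, adjusted p = 0.000256). Tead4 was also called higher with all its probe sets averaged (0.55, adjusted p = 0.00583). Fibroblasts, endothelium and smooth muscle also make Ccn2 and TAZ, their genes moved the same way as given above, and their part in this group was not tested.

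Other genes among the 15 largest rises, picked like the 15 largest falls from genes whose groups did not overlap, were of several kinds. Tm4sf1, a membrane tetraspanin-like protein of endothelium and carcinoma cells, spanned 10.68 to 12.39 (median 11.98) in tumours, against 4.66, 3.67 and 4.69 in positive and 2.6, 2.91, 4.17 and 5.78 in negative cells (change 7.74, adjusted p = 4.34e-32). F2r, the thrombin receptor, rose by 7.42 and Fscn1, the actin bundling protein fascin, by 6.59, or by 1.93 with its 4 probe sets averaged. Msln, the surface protein mesothelin of mesothelium and several carcinomas, spanned 9.61 to 11.39 (median 10.82) in tumours, 3.14, 3.63 and 3.15 in positive and 2.93, 6.35, 3.19 and 2.89 in negative cells (change 7.17, adjusted p = 2.69e-18). Of 9 other mesothelial genes 2 were higher and 1 lower, with a median of 0.0235. Prkg2 (a cyclic GMP dependent kinase), Igfbp3, Trf (transferrin), Mgp (matrix Gla protein) and Fstl1 rose by 7.02, 6.88, 6.70, 6.65 and 6.55. Among the 15 largest falls not yet described, Smim38 fell by 7.26, Gsdma2 (a gasdermin) by 6.50 and Sult1c2 (a sulfotransferase) by 5.87.

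Among immune genes the myeloid lists were higher. Of 21 macrophage and monocyte genes 18 were higher and none lower, with a median of 2.66, and their mean level was 5.925 to 8.346 in tumours, 4.453 to 4.704 in positive and 3.265 to 4.241 in negative cells. Cd68 spanned 7.24 to 9.09 (median 8.35) in tumours, against 4.22, 3.56 and 4.27 in positive and 3.34, 3.47, 3.63 and 3.81 in negative cells (change 4.45, adjusted p = 1.8e-17). Mrc1, the mannose receptor, spanned 7.48 to 10.61 (median 9.60) in tumours and 2.86 to 4.07 in sorted cells (change 5.97, adjusted p = 4.76e-18). C1qa, C1qb and C1qc, the chains of a complement protein that tissue macrophages make, rose by 5.29, 5.44 and 4.40, and Arg1 (arginase) by 5.30. Chil3, a chitinase-like protein of alternatively activated mouse macrophages and neutrophils, spanned 9.52 to 12.59 (median 11.47) in tumours, 3.41, 3.29 and 3.51 in positive and 3.39, 3.31, 3.54 and 3.59 in negative cells (change 7.90, SE 0.77, adjusted p = 7.58e-16). Among 15 neutrophil genes 8 were higher, all 8 with no overlap, including the calprotectin chains S100a8 and S100a9 by 5.21 and 4.20 and Il1r2 by 3.92. The early granule genes Mpo and Elane were not called (adjusted p = 0.528 and 0.653).

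Lymphocyte lists were not higher. Of all genes, 35.0% were higher and 23% lower. Of 21 T and NK cell genes none was higher and 4 were lower, with a median of -0.324. Their mean level was 3.037 to 3.633 in tumours, 3.274 to 3.78 in positive and 3.246 to 4.092 in negative cells. Array medians were 3.65 to 4.01, and 7 of the 21 genes were under the array median in all 18 samples. The T and NK list thus lay near the low end of the scale, which limits what its count can show. Cd3e spanned 3.79 to 4.68 (median 4.31) in tumours, against 5.26, 6.24 and 6.21 in positive and 5.20, 5.44, 5.01 and 5.31 in negative cells, a fall of 1.31 (adjusted p = 1.09e-08), and Cd3g was not called (adjusted p = 0.242). B and plasma cell genes were higher in 1 of 14 cases and lower in 3. The MHC class II genes rose in 6 of 11 cases and fell in none. H2-Ab1 was 6.79 to 10.34 (median 8.64) in tumours, 5.31, 5.53 and 7.30 in positive and 4.10, 4.52, 4.36 and 6.05 in negative cells (change 3.06, adjusted p = 8.52e-08). Interferon response genes were higher in 4 of 16 cases.

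Of 26 chemokines 17 were higher and 1 lower (median 1.95), and of 27 cytokine genes and receptors 15 were higher and 4 lower (median 0.998). Ccl6, a chemokine of myeloid cells in mice, rose by 6.03, and Cxcl14 by 5.41. Cxcl1, which attracts neutrophils, spanned 3.34 to 9.97 (median 7.23) in tumours, against 5.29, 3.06 and 4.77 in positive and 3.46, 3.01, 3.15 and 3.45 in negative cells (change 3.54, adjusted p = 1.1e-07). The 1 that fell was Ccl28, a mucosal chemokine of epithelium, by 2.49. Ptgs2, the inducible cyclooxygenase, spanned 5.63 to 9.44 (median 8.13) in tumours and 2.69 to 4.26 in sorted cells (change 4.50, adjusted p = 2.53e-09). Il6 spanned 4.01 to 7.42 (median 4.96) in tumours, 2.76, 3.21 and 2.64 in positive and 2.41, 3.29, 3.43 and 3.15 in negative cells (change 2.31). Osmr, a receptor subunit for the related oncostatin M, rose by 4.89, or by 1.77 with its 3 probe sets averaged. Il18, which normal gastric epithelium makes, fell by 1.46.

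**Figure D3:**
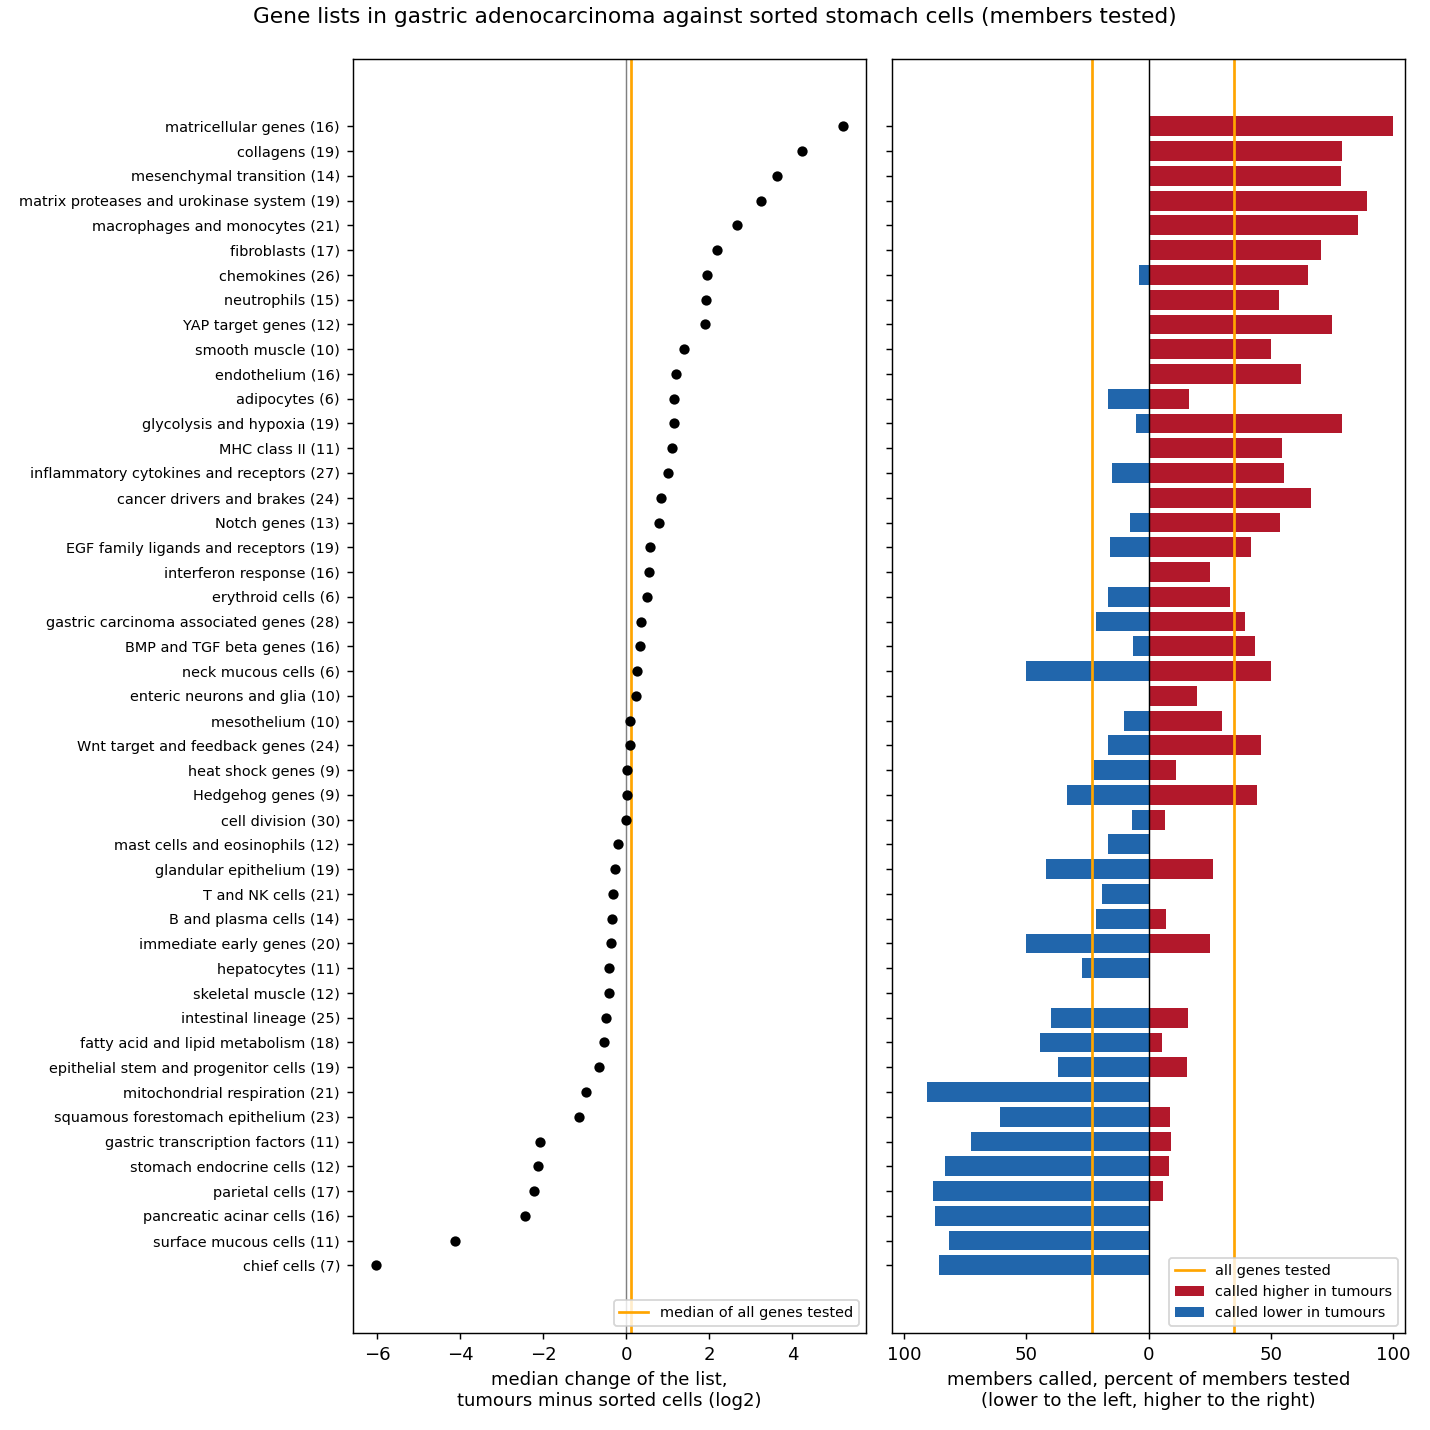
Median change (log2, tumours minus sorted cells) and the percent of genes called higher and called lower for the gene lists with 6 or more genes tested, with lines at the values for all 14663 genes. Matricellular genes, collagens, mesenchymal genes and proteases stand furthest above the median of all genes, and chief, surface mucous and pancreatic acinar genes furthest below.

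Among 24 cancer drivers and brakes 16 were higher and none lower, with a median of 0.841. Without the arrays of low upper quartile 14 were higher and none lower, where 22.4% and 20.9% of all genes were. With the upper quartile in the fit 8 were higher and 1 lower, where 16.5% and 26.2% of all genes were. Cdkn2a, the locus of the cell cycle brakes p16 and p19Arf, was 2.67 and 2.83 in tumours 1 and 2, had a median of 7.97 over the 11 and reached 10.69, against 2.85, 3.08 and 3.18 in positive and 2.87, 3.72, 2.47 and 3.10 in negative cells (change 4.35, SE 0.59, adjusted p = 5.41e-10). Cdk6, a kinase that this brake inhibits, spanned 7.75 to 11.79 (median 9.05) in tumours, 6.25, 4.97 and 5.60 in positive and 5.42, 5.01, 5.87 and 6.43 in negative cells (change 3.88, adjusted p = 3.65e-20). Ccnd1, its cyclin partner, rose by 2.15, Myc by 1.30 and Nras by 2.35, each with every tumour above every sorted sample. Erbb2, a receptor gained in some gastric carcinomas, was not called (change 0.15, adjusted p = 0.668). Met, another, rose by 1.10, a call lost without negative sample 2a (change 0.54, adjusted p = 0.256) or positive sample 2 (change 1.0, adjusted p = 0.0637) and with the upper quartile in the fit (change -0.71, adjusted p = 0.247).

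Few cell division genes were called. Of 30 tested, 2 were higher and 2 lower, with a median of -0.00478. Without the arrays of low upper quartile 1 was higher and 8 lower, where 20.9% of all genes were lower. With the quartile as a covariate none was higher and 10 were lower, where 26.2% of all genes were lower. Mki67 spanned 6.13 to 9.02 (median 7.98) in tumours, against 9.13, 8.76 and 8.69 in positive and 8.73, 8.41, 9.75 and 9.75 in negative cells, and fell by 1.27 (adjusted p = 0.00729), and Tyms fell by 0.95. Neither was called without the 3 sorted samples of highest Prss2 (adjusted p = 0.119 and 0.274). Mcm4, a subunit of the replicative helicase, and E2f1, a factor that drives replication genes, rose by 1.37 and 0.88, and neither was called with the upper quartile as a covariate (adjusted p = 0.97 and 0.0718). Top2a was 5.87 to 9.25 (median 8.13) in tumours and 5.50 to 9.10 in sorted cells and was not called (change 0.10, 95% interval -0.74 to 0.94, adjusted p = 0.855).

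Respiration genes were mostly lower and glycolysis genes mostly higher. Of 21 genes of mitochondrial respiration 19 were lower and none higher, with a median of -0.973. Cs (citrate synthase) spanned 9.30 to 10.57 (median 9.88) in tumours, against 10.88, 11.24 and 11.05 in positive and 12.06, 10.77, 11.73 and 11.49 in negative cells, a fall of 1.40 (adjusted p = 8.58e-14), and Cycs (cytochrome c) and Sdhb fell by 1.37 and 1.30 without overlap. The largest falls were of Ckmt1, mitochondrial creatine kinase, by 4.71 and Cox7a1 by 3.92. Parietal cells are dense in mitochondria, and the parietal mean level was 3.788 to 4.586 in tumours, 5.863 to 7.204 in positive and 7.184 to 9.29 in negative cells. What share of the respiration genes moved with that loss was not tested. Of 19 glycolysis and hypoxia genes 15 were higher and 1 lower, with a median of 1.14. Hk2 (hexokinase 2) spanned 8.68 to 11.34 (median 9.84) in tumours, 7.84, 7.59 and 7.90 in positive and 7.70, 4.95, 6.45 and 7.0 in negative cells (change 2.85, adjusted p = 1.61e-09), and Vegfa, Bnip3 and Gapdh rose by 2.74, 2.65 and 1.10. The 1 that fell was Car9, a carbonic anhydrase of normal gastric mucosa as well as of hypoxic tumours, by 1.87. Of 18 lipid metabolism genes 8 were lower and 1 higher.

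Signalling lists were mixed, and several counts lay near the shares of all genes, 35.0% higher and 23% lower. Of 24 Wnt target and feedback genes 11 were higher and 4 lower. The secreted modulators Sfrp1, Dkk3 and Dkk2 rose by 4.36, 3.56 and 3.09, while Lgr5, Ascl2, Ephb3 and Sfrp5 fell by 2.42, 2.25, 1.47 and 1.02. Axin2, the feedback gene most used as a readout of the pathway, was 4.02 to 5.86 (median 5.07) in tumours, 6.18, 5.83 and 6.62 in positive and 4.67, 4.71, 4.79 and 4.52 in negative cells and was not called (change -0.31, adjusted p = 0.54). Of 13 Notch genes 7 were higher and 1 lower, led by the ligand Jag1 (change 2.69). Of 19 EGF family and growth factor genes 8 were higher and 3 lower. The ligand Ereg (epiregulin) spanned 6.37 to 9.38 (median 7.42) in tumours and 2.92 to 3.84 in sorted cells (change 4.37, adjusted p = 6.99e-11), Hbegf rose by 1.92, the receptor Fgfr1 by 3.06, and Fgfr2, a receptor of epithelium, fell by 2.02. Of 16 BMP and TGF beta genes 7 were higher and 1 lower, with Tgfb3, Inhba and the antagonist Grem1 rising by 3.85, 3.53 and 3.04 and the target Id3 falling by 1.34. With its 2 probe sets averaged Inhba rose by 1.53. Of 9 Hedgehog genes 4 were higher and 3 lower. The ligand Ihh fell by 2.37 and the receptor Ptch1 rose by 1.88, a change of 0.35 and no call with the upper quartile in the fit (adjusted p = 0.396).

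Of 28 genes chosen for earlier links with gastric carcinoma 11 were higher and 6 lower, a split near that of all genes. Lgals3 (galectin 3) rose by 3.09 and Ptges, a prostaglandin synthase, by 2.48. Mmp7 ranged from 2.59 to 9.79 among tumours and rose by 2.10 (adjusted p = 0.00239). Pigr, which carries IgA across mucosa, fell by 4.29 (2.26 to 10.48, median 5.59, in tumours, 11.61, 11.47 and 12.08 in positive and 8.80, 9.20, 7.22 and 9.67 in negative cells), and Anxa10 by 4.20. Clu was not called (12.88 to 13.85, median 13.51, in tumours, 12.65 to 13.33 in sorted cells, adjusted p = 0.263).

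Transcripts of other organs were present in some samples. Of 16 pancreatic acinar genes 14 were lower in tumours and none higher. Prss2, a trypsinogen, was 2.44 to 7.38 (median 3.09) in tumours, against 9.05, 3.45 and 2.73 in positive and 3.58, 2.99, 8.43 and 9.60 in negative cells, so 3 of the 7 sorted samples (positive 1, negative 2b and negative 3) held it at high levels. Its change of -2.08 lost its call without positive sample 1 (adjusted p = 0.155) and was 0.35 without all 3. Tumour 3 was the highest tumour for Prss2 and held Ctrb1, another pancreatic protease, at 9.52. The call of Ctrb1 (change -1.74) was lost without positive sample 1 or negative sample 3 (adjusted p = 0.168 and 0.0674). Clps (colipase), counted above in the chief cell list, and Pla2g1b (a secreted phospholipase) are also pancreatic products. They were high in all 7 sorted samples, at 11.88 to 13.33 and 8.83 to 12.33, including those with low Prss2. They fell by 8.28 and 7.11, and which cells held them was not tested. Hepatocyte genes were called in 3 of 11 cases, all lower, lung epithelial genes in 1 higher and 1 lower of 5, and skeletal muscle genes in none of 12. Erythroid genes were higher in 2 of 6 cases and lower in 1, adipocyte genes higher in 1 and lower in 1 of 6, mast cell and eosinophil genes lower in 2 of 12, enteric neuron and glia genes higher in 2 of 10, and those of interstitial cells of Cajal higher in 1 and lower in 1 of 4. Xist, transcribed from the inactive X chromosome of female cells, was over 8 in tumours 1, 2, 3, 9 and 10 and under 4 in the other 6 tumours. In the 7 sorted samples it was 8.92 to 11.95. Probe sets of the Y-linked genes Eif2s3y, Kdm5d and Uty changed by -0.38 to 0.0544, -0.452 to -0.268 and -0.0862 to 0.125. The part of sex in the results was not tested.

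Set against each sorted fraction on its own, the tumours differed in 6612 genes (45.1%) from positive cells, 3737 higher and 2875 lower, and in 7772 genes (53%) from negative cells, 5125 higher and 2647 lower. Of genes called in both, 3287 were higher in both, 1816 lower in both and 26 of opposite sign. These contrasts share the 11 tumours. Atp4a and Esrrg fell further against negative cells, at -8.96 and -7.11, than against positive cells, at -5.64 and -2.88, and positive minus negative cells was -3.32 (adjusted p = 0.000746) and -4.23 (adjusted p = 9.52e-07). Gast and A4gnt fell further against positive cells, at -10.13 and -8.05, than against negative cells, at -8.07 and -4.89, and positive minus negative cells was 2.05 (adjusted p = 0.0076) and 3.15 (adjusted p = 6.67e-07). Ccn2 changed by 8.55 against positive and 8.55 against negative cells. Leaving out the arrays of low upper quartile, which removes 2 of the 3 positive samples, left 3558 genes called against positive cells.

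The same comparison can be made in 4 other organs of the series, whose tumours were also frozen whole and whose normal cells were also sorted for Prom1. The change in stomach minus the mean change in prostate, lung, liver and uterus (46 tumours) was fitted as 1 contrast and was called for 7988 genes (54.5%), 4493 higher (30.6%) and 3495 lower (23.8%). Of the 5135 genes higher in gastric tumours 3733 were also higher in this contrast, and of the 3379 lower 2517 were also lower. The contrasts share the gastric and sorted stomach samples, so this overlap is given as a count only.

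The largest positive differences were of Tm4sf1 (8.41, adjusted p = 3.38e-31), Mrc1 (7.63, adjusted p = 2.39e-21), Vim (7.23), Fscn1 (7.10), F2r (6.93), Il6 (6.92), Cxcl1 (6.89), Ptgs2 (6.53), Ccn2 (6.52) and Col5a2 (6.48). Ccn2 changed by 8.55 in stomach and by 2.03 in the mean of the other organs, the same direction, while Il6 changed by 2.31 in stomach and -4.62 elsewhere, and Mrc1 by 5.97 in stomach and -1.65 elsewhere. The mean change in the other organs was also below 0 for Cxcl1 (-3.36), Ptgs2 (-2.03), Tm4sf1 (-0.67), Vim (-0.61) and Fscn1 (-0.51), so for these 7 genes the difference includes a lower mean level in tumours than in sorted cells there. The largest negative differences were of Gast (-8.94), Cblif (-8.60), Chia1 (-8.55), Pgc (-8.54), Clps (-8.03), Pla2g1b (-7.88), Atp4b (-7.62), Atp4a (-7.48), Smim38 (-7.22) and Ghrl (-6.93), whose mean changes in the other organs lay between -0.25 and 0.79. As lists, 18 of 21 macrophage genes had a higher change in stomach and none a lower one. Of 26 chemokines 20 had a higher and 2 a lower change. Of 30 cell division genes 18 had a lower and 2 a higher change. Of 21 mitochondrial genes 20 had a lower change and none a higher one. Of 12 YAP genes 8 had a higher and 1 a lower change. The median differences of the macrophage and chemokine lists, 3.65 and 3.75, exceeded their median changes in stomach, 2.66 and 1.95. Some genes of both lists thus had a mean change below 0 in the other organs. Mki67 changed by -1.27 in stomach and 1.31 in the mean of the other organs, and Cdk1 by -0.11 and 1.83.

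**Figure D4:**
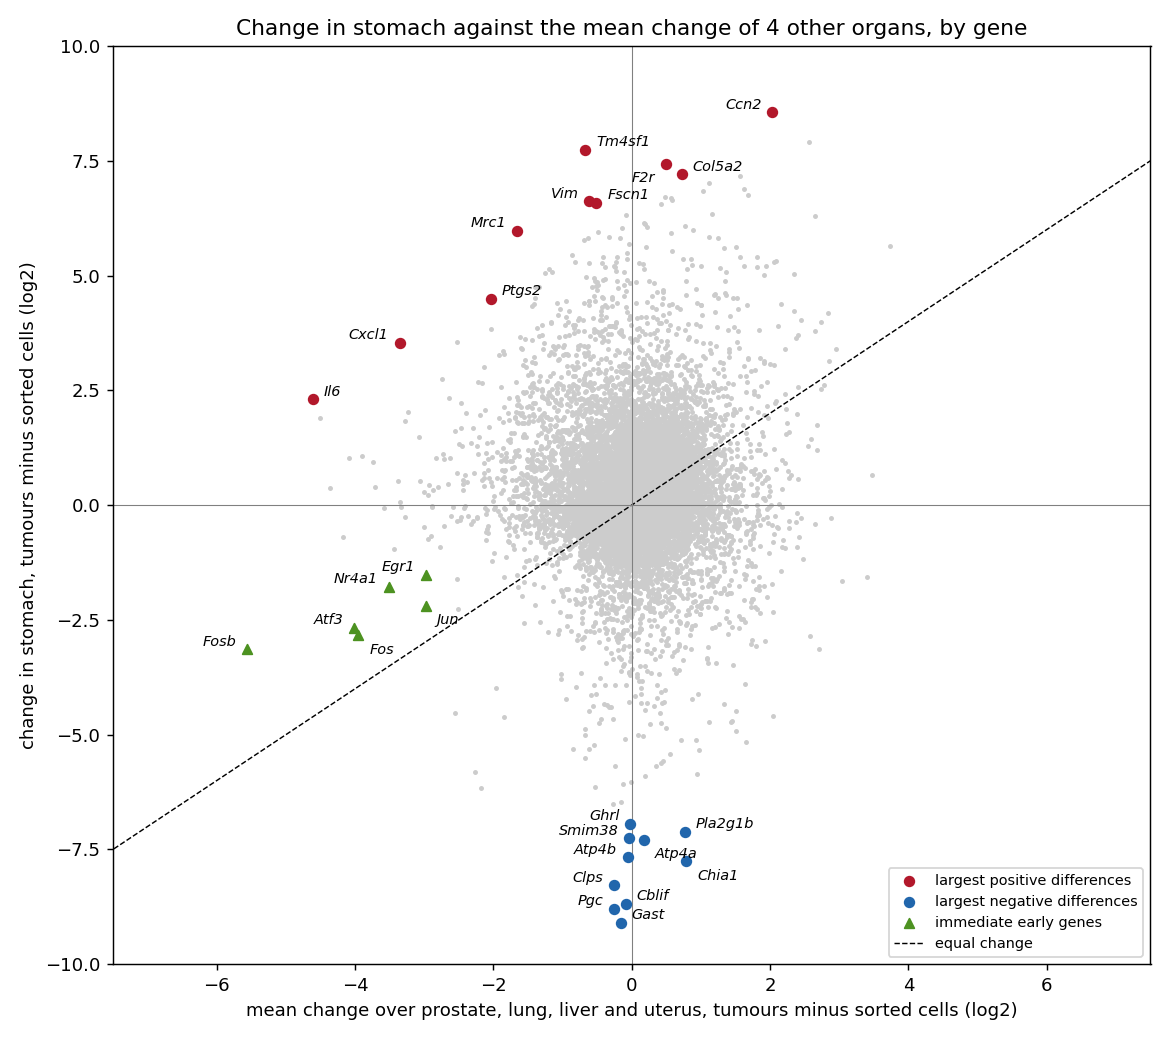
Change in stomach (vertical, log2, tumours minus sorted cells) against the mean change in prostate, lung, liver and uterus (horizontal) for each of 14663 genes, with the 10 largest positive and 10 largest negative differences and 6 immediate early genes marked and the dashed line at equal change. Parietal, chief and endocrine genes lie far below 0 in stomach and near 0 elsewhere, and the immediate early genes lie below 0 in both.

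Immediate early genes are induced within minutes of stress, including the dissociation of tissue, which only the sorted cells went through. Of 20 tested 10 were lower and 5 higher in gastric tumours. Fos spanned 7.51 to 10.16 (median 8.83) in tumours, against 12.06, 11.63 and 12.18 in positive and 11.61, 11.01, 11.10 and 11.32 in negative cells, a fall of 2.84 (adjusted p = 2.36e-11), and its mean change in the other organs was -3.95. Fosb fell by 3.14 and Jun by 2.20, with mean changes of -5.56 and -2.98 elsewhere. In the contrast between organs 17 of the 20 were higher and 1 lower, with a median difference of 1.59. Fosl1, a member of the same family found in invasive carcinomas, rose by 2.66 with every tumour above every sorted sample (5.41 to 6.70, median 6.03, in tumours, 2.66 to 3.89 in sorted cells). Heat shock genes were higher in 1 of 9 cases and lower in 2.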

How the data were processed

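The deposited table holds log2 probe set signals of 117 Affymetrix arrays, which the authors made by robust multi-array averaging (RMA) in Partek 6.6, per the submitters' processing notes. The values spanned 1.63 to 14.2, and the number of arrays limits the precision. Symbols came from the platform annotation, updated by Entrez ID through RefSeq (GRCm38.p6): of 45141 probe sets 28898 had 1 symbol, 551 several and 15692 none. Each gene was represented by its probe set of highest mean, and genes above the array median in at least 3 arrays were kept (14663 of 17097).

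A group-means model was fitted to all 117 samples in 19 groups with limma 3.58.1 (R 4.3.3, lmFit and eBayes), with Benjamini-Hochberg adjustment over all genes, a threshold of 0.05, and the procedure was tested on simulated data. The named genes were the members of 49 lists, Prom1, the 15 largest rises and falls among called genes whose groups did not overlap, the 10 largest differences from the other organs in each direction, and the 10 largest SDs over tumours. The members and lists were chosen with earlier results of these data known. Of the called genes named in the text, 11 had another probe set with a change of opposite sign: Acta2, Cd44, Cdh5, Fgfr1, Fscn1, Inhba, Lats2, Myh11, Ptch1, Runx1 and Runx3. Figures were drawn with matplotlib 3.10.9.

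The labels number the sorted samples, but 2 negative samples carry the number 2 and nothing says that a number marks a shared animal. The numbers were therefore used only in an alternative with a replicate block.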

Additional observations from a re-analysis of the deposited data

Results flagged for a closer look

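In the group of 4 negative samples, the highest or the lowest sample was tested for its distance from the others in 208 measures, and 24 stood apart. Chance marks about 1 in 20 groups. In 19 of the 24 measures negative sample 2a was the distant one. Its array median was 4.006 and its Gapdh 3′ minus 5′ signal 2.173. Among genes higher in tumours, it held Bnip3 at 3.96, Col1a1 at 3.98, Cxcl14 at 5.0, Lcn2 at 5.47, Met at 4.15, Mrc1 at 3.83, Msln at 6.35, Nras at 4.6, Tjp1 at 5.54, Twist1 at 4.15 and Yap1 at 4.97. Among genes lower in tumours, it held Ckmt1 at 8.38, Cldn18 at 9.54, Foxa1 at 9.44, Pax6 at 6.16, Prss8 at 4.38 and Sult1c2 at 9.94. Negative sample 1 was distant for Acta2 at 4.15, Gapdh at 12.2 and Mmp7 at 3.69, and negative sample 2b for C1qc at 5.07 and Snai2 at 2.32.

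The change in stomach differed from the mean change in prostate, lung, liver and uterus for 7988 genes in the test of that difference. The differences furthest above 0 were those of Tm4sf1 at 8.41, Mrc1 at 7.63, Vim at 7.23, Fscn1 at 7.1, F2r at 6.93, Il6 at 6.92, Cxcl1 at 6.89, Ptgs2 at 6.53, Ccn2 at 6.52 and Col5a2 at 6.48. Those furthest below 0 were Gast at -8.94, Cblif at -8.6, Chia1 at -8.55, Pgc at -8.54, Clps at -8.03, Pla2g1b at -7.88, Atp4b at -7.62, Atp4a at -7.48, Smim38 at -7.22 and Ghrl at -6.93.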

How the results depend on the processing

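The main comparison called 8514 genes, 60.3% of them higher in tumours, and other settings gave 6264 to 10376, apart from tumour 11 alone. The call depended on the signal range of the arrays: with the upper quartile as a covariate 6264 genes were called, 38.6% of them higher. Of the 8514, 4247 kept their call and sign, 248 were called with the opposite sign and the rest lost their call. Without the arrays of low upper quartile 6354 genes were called (51.7% higher). With quantile normalization repeated it was 8105 (47.2% higher, median change of all genes -0.0654), and with a filter on the 18 samples alone 6679 (74.1% higher). Leaving out 1 sample gave 7718 to 8678 genes for the main comparison, 7256 to 8097 for the difference from other organs, 4812 to 7159 against positive and 5875 to 7968 against negative cells. Without the arrays of low upper quartile 3558 genes were called against positive cells, and with the covariate 4854 against negative cells. The lowest counts with 1 sample left out, 4812 against positive and 5875 against negative cells, came without positive sample 2 and without negative sample 2a.

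With only tumour 11, whose sample code lies among those of the sorted samples, 1717 genes were called. That group is then 1 sample, assumed to vary like the other groups. There Alpi (5.32), Aqp5 (1.63), Clca1 (3.73), Nkx6-3 (1.04), Pigr (0.262), Prom1 (0.257), Tff1 (0.182) and Tff3 (5.8) were higher, and of these Alpi and Tff3 were called. Against negative cells alone Aqp5 changed by 0.415. With the covariate Cdx2 changed by 0.221 and Met by -0.714. Without the 3 sorted samples of highest Prss2, a setting chosen after seeing the data, Ctrb1 changed by 0.0809 and Prss2 by 0.348, and 8720 genes were called. The cause of these changes was not tested.

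The replicate block, with the number in a tissue as a random block, called 8490 genes with a consensus correlation of 0.00722 and changed no call of a named gene. Of 204 genes named in the text, 182 were called. In the alternatives these gave 6163 values, of which 5994 kept direction and call, 12 changed sign and the rest kept direction without a call. The 22 not called gave 741 values, of which 26 gained a call and 53 changed sign without one. Among calls lost were also those of Aqp5, Cldn7 and Cpe with the covariate, of Alpi, Aqp5, Ctrb1, Krt20, Met, Mmp7, Myh11 and Prss2 with only the 18 samples fitted, of Cdx2, Krt20, Met and Myh11 with arrayWeights, and of Il18 without the 3 sorted samples of highest Prss2, while Clu was called only with the 18 samples fitted alone. Averaging all probe sets moved 21 named changes by more than 1.5 times with the call kept, and the covariate 13. Of 1666 list medians 77 moved by more than the spread between replicates. Tumour state, whole tissue and sorting cannot be separated in any setting.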
